A study of Mus musculus with 12 samples.

Results

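Gastrocnemius muscle of 3 mice given TSC22D4 shRNA was set directly against that of 3 mice given LCN13 shRNA, which uses 6 of the 12 arrays of the series and all 25206 of their probe sets. The arrays were chosen by their titles, and the result is the difference of group mean log2 levels, TSC22D4 minus LCN13, so that a difference of 1 is a 2-fold difference. All mice carried the background BKS.Cg-Dock7m +/+ Leprdb/J (000642), in which the leptin receptor is not functional and obesity and diabetes follow. They were 12 weeks old and were killed 1 week after receiving adenovirus that carries shRNA, a hairpin transcript processed by the cell to silence a matching messenger RNA. The TSC22D4 group, animals 25, 26 and 27, received 2e+09 plaque-forming units of TSC22D4 shRNA virus and 2e+09 of control shRNA virus. The LCN13 group, animals 21, 22 and 23, received 2e+09 units of LCN13 shRNA virus and 2e+09 of control shRNA virus. The 2 groups thus share the virus dose and the control virus, and differ in the second hairpin. Controls, animals 18, 19 and 20, received 4e+09 units of control virus, and animals 29, 30 and 32 received both target viruses at 2e+09 each. The arrays of controls and of the group with both viruses enter the estimate of the spread but not the difference itself. Each group had 7 treated animals, of which the submitters chose 3 as representative for the arrays by a criterion that no source used here gives. The labels give no promoter or cell type that limits the hairpins, and no batch or scan date.

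TSC22D4 is a nuclear protein of the TSC22 leucine zipper family, known in liver as a repressor of transcription and of lipocalin 13 output. Lipocalin 13, whose mouse gene is now named Obp2a, is a small secreted carrier protein of the lipocalin family that is made in liver and has been linked to insulin sensitivity. Adenovirus given through the blood reaches mainly the liver. Muscle takes up glucose through the insulin-regulated transporter GLUT4 and burns fatty acids, glucose and branched-chain amino acids in its mitochondria.

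The targeted transcripts did not separate the groups in muscle. Tsc22d4 read 6.81, 7.00 and 6.62 on the LCN13 arrays and 6.87, 6.86 and 6.75 on the TSC22D4 arrays, and 6.54, 6.43 and 6.79 in controls. The groups overlapped, and the difference was 0.01 (SE 0.12, 95% interval -0.26 to 0.28). Obp2a read between 4.90 and 4.97 on the 6 arrays, below the array median of 5.45, where signal and background are not separated by any deposited value, with a difference of 0.01 (interval -0.05 to 0.07). Neither target therefore checks the labels in this tissue. The tissue label was borne out by its markers: 8 skeletal muscle fibre genes, among them Acta1, Ckm and Myh4, averaged between 13.62 and 13.69 on every array, close to the highest deposited value of 14.09, and differed between the groups by -0.08 to 0.19.

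Of the 25206 probe sets, 37 (0.147%) passed an adjusted p below 0.05 in limma's moderated test with Benjamini-Hochberg adjustment over all probe sets. There were 11 (0.0436%) higher and 26 (0.103%) lower in the TSC22D4 group. The largest were small structured RNAs of the nucleolus and Cajal bodies, with differences from -1.98 to -1.17, and among protein-coding genes the tryptophanyl-tRNA synthetase Wars, higher by 0.68. Most were small: the median size was 0.34, 6 lay past 0.5 and 3 past 1. On all 37 the TSC22D4 and LCN13 arrays did not overlap, but this also held for 2495 (9.90%) of all probe sets in the higher and 2840 (11.3%) in the lower direction. An unadjusted p below 0.05 was reached by 1719 (6.82%) higher and 1781 (7.07%) lower. The adjusted p of the 37 lay between 0.0435 and 0.0496, just inside the threshold, and 0 of them passed in all 12 fits that left out 1 array.

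The number that passed depended on single arrays. When animal 19 or 20 of the controls, animal 23 of the LCN13 group or animal 25 of the TSC22D4 group was left out it was 0, with at least 2474 at an unadjusted p below 0.05. It was 1 and 2 when TSC22D4 animals 26 and 27 were left out, 3 for control animal 18, and 9 and 22 for LCN13 animals 21 and 22. It was 68, 201 and 59 when animals 29, 30 and 32 of the group with both viruses were left out, and 84 in a fit of the 6 compared arrays alone, of which 8 were among the 37. By their 95% intervals, 25059 probe sets (99.4%) lay wholly within 1 in either direction and 23333 (92.6%) wholly within 0.5, with a median standard error of 0.049. Each interval holds for 1 probe set and is not adjusted for the number tested. Below the array median of 5.45 signal and background are not separated, so a narrow interval there does not bound a change of the transcript.

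**Figure D1:**
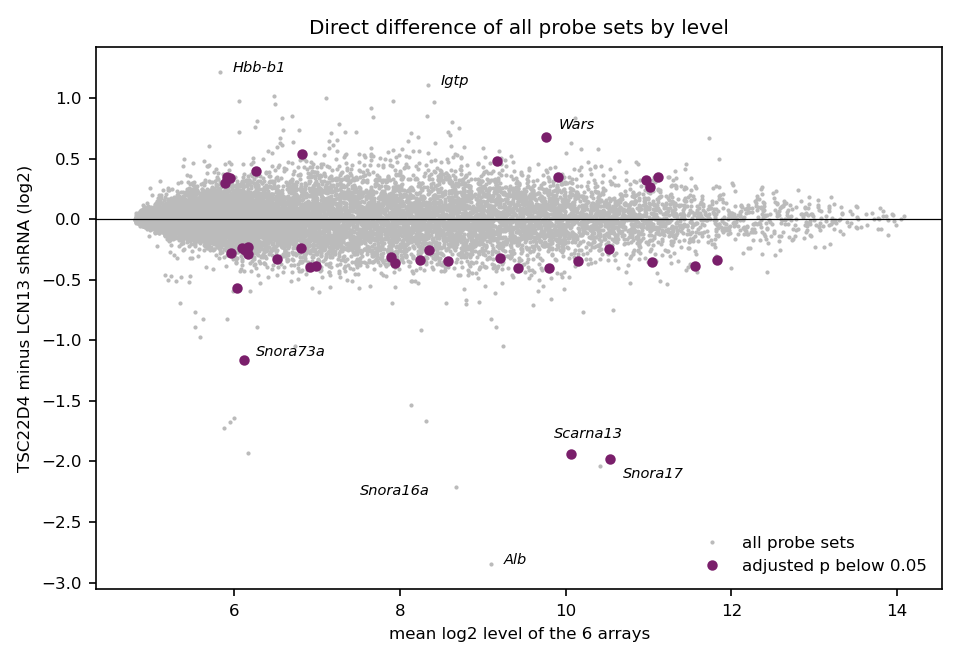
Each point is 1 of 25206 probe sets, with its mean log2 level over the 6 arrays on the horizontal axis and its log2 difference, TSC22D4 minus LCN13 shRNA, on the vertical axis; purple points passed an adjusted p below 0.05. Most points lie within 0.5 of 0, 14 lie below -1 and 4 above 1, and among those past 1 the 3 that passed are Snora17, Scarna13 and Snora73a.

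Among the 11 genes higher with TSC22D4 than with LCN13 shRNA were Wars, Asb10 and the mitochondrial enzyme Aldh6a1. Wars, which charges the tryptophan tRNA and is also known as an interferon gamma-induced gene, read 9.53, 9.55 and 9.19 in the LCN13 group and 10.27, 9.99 and 10.04 in the TSC22D4 group. Controls, at 9.87, 9.78 and 9.81, lay between, and the difference was 0.68 (1.60-fold, SE 0.097, adjusted p = 0.0435). Asb10, a substrate adaptor of ubiquitin ligases, read 6.47, 6.58 and 6.60 against 7.13, 7.14 and 7.00 and was higher by 0.54 (SE 0.063). Here the LCN13 arrays lay below controls (6.87, 7.06 and 7.01), a difference of -0.43 that passed (adjusted p = 0.0157), while the TSC22D4 arrays were close to them.

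Rrp1, which takes part in ribosomal RNA processing, read 8.89, 8.95 and 8.95 against 9.53, 9.41 and 9.28, a difference of 0.48 (SE 0.068). Ten1, a subunit of the telomere-capping CST complex, read 6.02, 6.05 and 6.09 against 6.47, 6.49 and 6.41, higher by 0.40 (SE 0.048). Tspan3, a membrane protein of the tetraspanin family, was higher by 0.35, with 10.87, 10.98 and 10.96 against 11.27, 11.29 and 11.32. For Ten1 and Tspan3 the TSC22D4 group was the one farther from control, at 0.28 and 0.24 above it, without passing there. The remaining 6 were Dalrd3 (0.35), Anapc13 of the anaphase-promoting complex (0.35), the end-joining DNA repair factor Nhej1 (0.34), Aldh6a1 (0.32), Osbpl10 (0.30) and Pdpr, the regulatory subunit of pyruvate dehydrogenase phosphatase (0.27).

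The named protein-coding genes that passed as lower with TSC22D4 shRNA differed by -0.40 to -0.23. Matr3, a nuclear matrix protein that binds RNA, read 9.40, 9.30 and 9.38 in the LCN13 group and 9.05, 8.99 and 9.09 in the TSC22D4 group, a difference of -0.32 (SE 0.039). It was also lower than control in the TSC22D4 group, at -0.25 (adjusted p = 0.0344), and its LCN13 arrays reached slightly above the control arrays (9.33, 9.27 and 9.27). Cdv3 was also lower than control with TSC22D4 shRNA, while its LCN13 arrays overlapped controls, with 8.10, 8.10 and 8.16 against 7.70, 7.84 and 7.73 and controls at 8.15, 8.07 and 8.17. The difference was -0.36 (SE 0.045), and -0.37 against control (adjusted p = 0.00846).

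For Bmpr1a, a receptor for bone morphogenetic proteins, the LCN13 group was the one that differed from control. The LCN13 arrays, at 11.23, 11.21 and 11.23, stood above controls (11.01, 10.93 and 10.94) by 0.26 (adjusted p = 0.0239), and the TSC22D4 arrays, at 10.83, 10.81 and 10.96, were close to controls. The direct difference was -0.36 (SE 0.042). Reep3, a protein that shapes the endoplasmic reticulum, had the same pattern, with 8.73, 8.78 and 8.73 against 8.32, 8.41 and 8.48, a direct difference of -0.34 and a rise of 0.37 in the LCN13 group against control (adjusted p = 0.0107). So did Slc35b1, an ATP carrier of the endoplasmic reticulum, at -0.34 directly and 0.27 above control with LCN13 shRNA (adjusted p = 0.0419). Clk4, a kinase of splicing factors, differed by -0.40, Fip1l1 of the polyadenylation machinery by -0.26 and the transcription factor Foxa2 by -0.26. Further genes that passed were the neurotensin receptor Ntsr2 (-0.40), Fam120aos (-0.33), Fibcd1 (-0.28), the deubiquitinase Otud6b (-0.25), the Notch pathway ligase Dtx2 (-0.24), Lime1 (-0.24) and Cpne6 (-0.23), along with clone-named genes and 4 probe sets without a symbol.

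**Figure D2:**
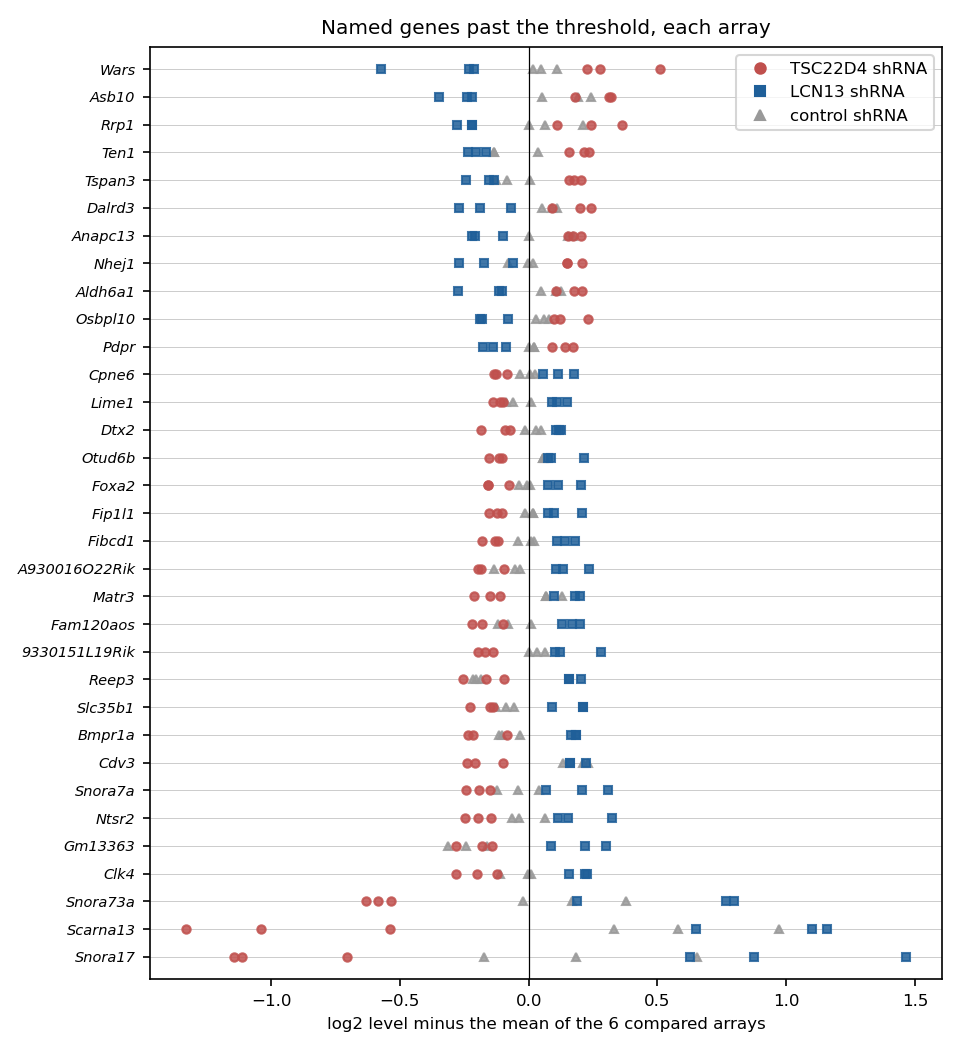
Each row is 1 of the 33 named genes that passed, with the log2 level of every array minus the mean of the 6 compared arrays on the horizontal axis; red circles are TSC22D4, blue squares LCN13 and grey triangles control arrays. In every row the red and blue points do not overlap, and the largest gaps are those of Snora17 (-1.98) and Scarna13 (-1.94).

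Control means lay between the 2 groups for 34 of the 37, above both for 1 and below both for 2. Against control 72 probe sets (0.286%) passed with TSC22D4 shRNA and 209 (0.829%) with LCN13 shRNA. These comparisons share the 3 control arrays, so their agreement is not a result. Of the 223 probe sets that passed in either, 13 also passed directly, beside 37 (0.147%) of all probe sets. Their direct differences ran from -1.94 to 0.84 over the 223. For 215 of the 223 the direct interval lay within 1, beside 99.4% of all probe sets. Of the 37, 3 also passed for TSC22D4 and 10 for LCN13 shRNA against control, and the LCN13 mean was the one farther from control for 22. The direct comparison uses the same TSC22D4 and LCN13 arrays as those against control, so these overlaps are not a result.

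Enzymes that break down the branched-chain amino acids leucine, isoleucine and valine were higher with TSC22D4 than with LCN13 shRNA across nearly the whole list. This pathway begins with a transaminase, passes through the branched-chain ketoacid dehydrogenase complex in the mitochondrion and ends in intermediates that enter the citric acid cycle. All 19 measured members of 20 had a positive difference, between 0.10 and 0.60, with a median of 0.24 against -0.0026 for all probe sets. The groups did not overlap for 18 of them (94.7%, beside 9.90% of all probe sets). An unadjusted p below 0.05 was reached by 15, beside 6.82% of all probe sets in the higher direction, but 1, Aldh6a1, passed the adjusted threshold. Aldh6a1, which oxidises methylmalonate semialdehyde from valine, read 10.69, 10.86 and 10.85 in the LCN13 group and 11.14, 11.07 and 11.17 in the TSC22D4 group (0.32, SE 0.048, adjusted p = 0.0439). Controls, at 11.07, 11.01 and 11.09, were level with the TSC22D4 arrays, and the LCN13 group differed from them by -0.25 (adjusted p = 0.0479).

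Both subunits of the decarboxylating part of the complex had the largest gaps. Bckdhb read 8.52, 8.54 and 8.34 in the LCN13 group and 9.29, 8.90 and 9.00 in the TSC22D4 group, a difference of 0.60 (interval 0.37 to 0.83, adjusted p = 0.0553). Bckdha read 8.29, 8.61 and 8.55 against 9.09, 9.02 and 8.85, a difference of 0.50 (interval 0.22 to 0.79, adjusted p = 0.131). On both genes every TSC22D4 array exceeded every LCN13 array. Of the enzymes that set the activity of this complex, its phosphatase Ppm1k differed by 0.42 and its inhibiting kinase Bckdk by 0.24, neither of them past the threshold. Downstream, Pccb of propionyl-CoA carboxylase read 8.84, 9.10 and 9.11 against 9.56, 9.47 and 9.49 (0.49, adjusted p = 0.0772), and Ivd, isovaleryl-CoA dehydrogenase, read 9.79, 10.15 and 10.15 against 10.62, 10.47 and 10.41 (0.47, adjusted p = 0.110). Slc25a44, the mitochondrial carrier of these amino acids, differed by 0.32, and the transaminase Bcat2 by 0.18.

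Control means lay between the groups for 15 of the 19 members, beside 9459 of all 25206 probe sets. Against control the list's median was 0.07 for TSC22D4, -0.18 for LCN13 and -0.14 for the group with both viruses. The list's mean deviation from the 12-array mean was -0.206, -0.099 and -0.145 on the LCN13 arrays and 0.207, 0.121 and 0.098 on the TSC22D4 arrays, and the ranges did not overlap. The median stayed between 0.193 and 0.285 under all 23 alternatives. The number with an unadjusted p below 0.05 fell to 10 without TSC22D4 animal 25, to 9 with the hepatocyte marker score as a covariate and to 6 with that of red cell markers, whose levels are given with the other cell types. Both scores separated the TSC22D4 and LCN13 arrays, so in these covariate fits score and group cannot be told apart.

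**Figure D3:**
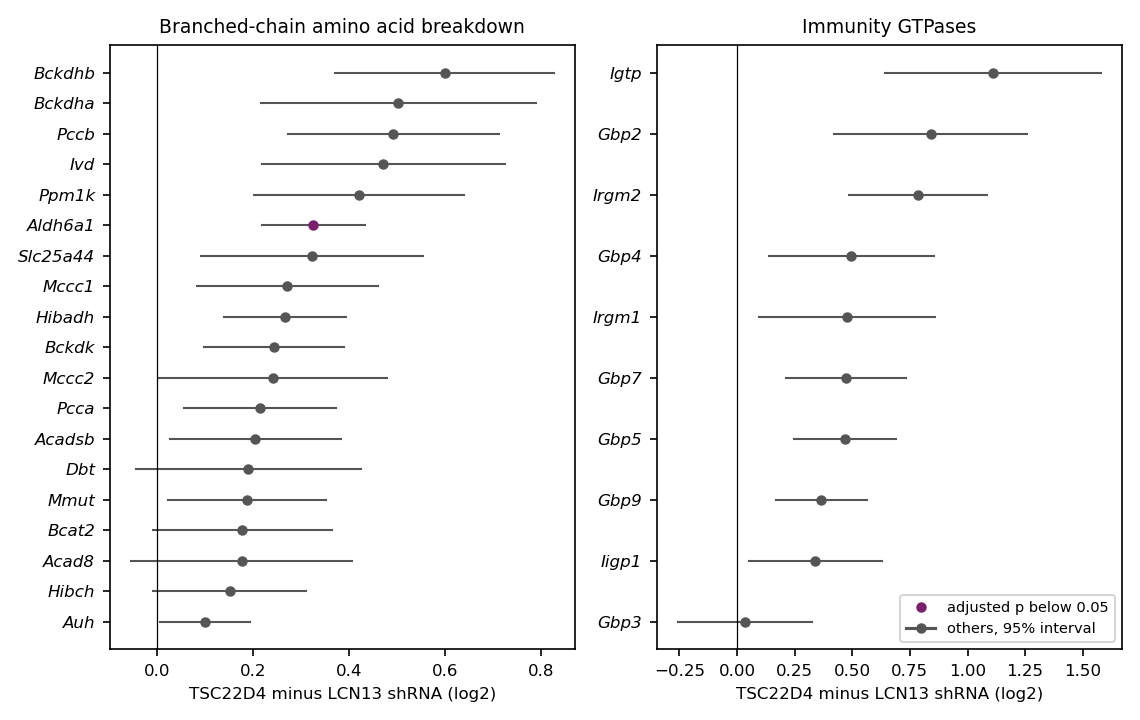
The log2 difference, TSC22D4 minus LCN13 shRNA, is given with its 95% interval for the 19 measured genes of branched-chain amino acid breakdown on the left and for 10 immunity GTPases on the right; the purple point, Aldh6a1, passed an adjusted p below 0.05. All points lie above 0, from 0.10 to 0.60 on the left and from 0.03 to 1.11 on the right, and the intervals of Dbt, Bcat2, Acad8, Hibch and Gbp3 reach across 0.

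Of the citric acid cycle, oxidative phosphorylation, glucose, glycogen and fatty acid oxidation lists, 0 genes passed in limma. At an unadjusted p below 0.05 there were 8 higher and 0 lower of 15 in the citric acid cycle, 9 and 2 of 31 in oxidative phosphorylation and 3 and 0 of 15 in glycolysis. There were 2 and 1 of 11 in glycogen metabolism, 2 and 2 of 20 in insulin signalling and glucose uptake, and 0 and 3 of 22 in fatty acid oxidation. The shares of all probe sets were 6.82% higher and 7.07% lower. Of 15 citric acid cycle genes, 8 (53.3%) had TSC22D4 arrays wholly above LCN13 arrays and 0 wholly below, beside 9.90% and 11.3% of all probe sets. The median of this list was 0.11. Citrate synthase, Cs, read 12.14, 12.27 and 12.31 against 12.54, 12.50 and 12.48 (0.27, SE 0.059, adjusted p = 0.0910). Among 31 oxidative phosphorylation genes, 10 (32.3%) were apart in the higher and 2 (6.45%) in the lower direction, beside the same shares of all probe sets, and the median was 0.04. The examples went both ways, with the cytochrome oxidase subunits Cox4i1 at 0.33 and Cox6a2 at -0.21.

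Of 20 measured genes of insulin signalling and glucose uptake, 4 (20%) were apart in the higher and 3 (15%) in the lower direction. The shares of all probe sets were 9.90% and 11.3%, and the median of the list was -0.01. Slc2a4, which codes for GLUT4, read 11.15, 11.25 and 11.14 in the LCN13 group and 11.42, 11.48 and 11.49 in the TSC22D4 group. The TSC22D4 arrays overlapped controls (11.39, 11.50 and 11.43) and the LCN13 arrays lay below both. The difference was 0.29 (interval 0.18 to 0.39, adjusted p = 0.0553). Glycolytic Pfkm, the muscle phosphofructokinase, differed by 0.24 (adjusted p = 0.0744) and hexokinase Hk2 by 0.31 (adjusted p = 0.180). Glycogen synthase Gys1 differed by 0.28, and of 11 glycogen genes 5 (45.5%) were apart in the higher and 1 (9.09%) in the lower direction, beside 9.90% and 11.3% of all probe sets. The insulin-pathway kinase Pdpk1 and the phosphatase Ptpn1, which acts on the insulin receptor, differed by -0.22 and -0.25 without passing.

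Of 22 genes of fatty acid oxidation and PPAR targets, 0 were apart in the higher and 7 (31.8%) in the lower direction, beside 9.90% and 11.3% of all probe sets, and the median was -0.04. Acot2, a mitochondrial acyl-CoA thioesterase, read 10.67, 11.11 and 11.08 with LCN13 shRNA and 10.15, 10.28 and 10.16 with TSC22D4 shRNA (-0.75, interval -1.09 to -0.42, adjusted p = 0.0772). The fatty acid transporter Cd36 read 12.72, 12.70 and 12.72 against 12.40, 12.49 and 12.49 (-0.25, adjusted p = 0.0553). Its TSC22D4 arrays overlapped controls (12.39, 12.39 and 12.48) and its LCN13 arrays stood above them. Mlycd, malonyl-CoA decarboxylase, differed by -0.26 and the peroxisomal enzyme Cat by -0.29, neither passing.

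Genes of the interferon response were listed by kind. The immunity-related and guanylate-binding GTPases, which attack vacuoles of intracellular pathogens and are classic targets of interferon gamma, all had a positive difference, while those of effectors typical of type I interferon lay on both sides of 0. Of 10 measured GTPases of 13 listed, 0 passed, 9 had an unadjusted p below 0.05 and 8 (80.0%) were apart, all in the higher direction, with a median of 0.47. Of 37 interferon-induced effectors, 0 passed, 3 were higher and 3 lower at an unadjusted p below 0.05, and 8 (21.6%) were apart in the higher and 5 (13.5%) in the lower direction, with a median of -0.0039. Among all probe sets 9.90% were apart in the higher and 11.3% in the lower direction, and 6.82% and 7.07% had an unadjusted p below 0.05. Of 8 measured genes of MHC class II and antigen presentation, 4 lay above and 4 below 0, with a median of 0.01. In that list 0 had an unadjusted p below 0.05, and 1 (12.5%) was apart in the higher and 0 in the lower direction. The difference between the GTPase and effector lists was not tested.

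Igtp, an immunity-related GTPase, read 7.96, 7.68 and 7.73 in the LCN13 group and 9.33, 8.63 and 8.73 in the TSC22D4 group, with controls at 8.77, 8.30 and 8.59. It was the second largest positive difference of all probe sets, 1.11 (2.16-fold, interval 0.64 to 1.58, adjusted p = 0.0660). Irgm2 of the same family read 6.88, 7.00 and 6.71 against 7.92, 7.31 and 7.72 (0.79, interval 0.48 to 1.09, adjusted p = 0.0562). In both genes the groups were apart and the TSC22D4 arrays overlapped controls, with the TSC22D4 mean above the control mean for Igtp and below it for Irgm2. Gbp2, a guanylate-binding protein, read 7.32, 7.29 and 7.16 against 8.47, 7.71 and 8.12 (0.84, interval 0.42 to 1.26, adjusted p = 0.0931), and Gbp5 read 5.96, 6.02 and 5.99 against 6.48, 6.39 and 6.51 (0.47, adjusted p = 0.0842). Against control, Irgm2, Gbp2 and Gbp5 were lower with LCN13 shRNA, at -0.91, -1.10 and -0.69, all past the threshold (adjusted p = 0.0173, 0.0328 and 0.0146). With TSC22D4 shRNA they differed from control by -0.13, -0.26 and -0.23, none past it. Over the 10 GTPases the median against control was -0.24 with TSC22D4 and -0.74 with LCN13 shRNA. There 1 and 6 passed, all lower, beside 63 and 152 of all 25206 probe sets. The 1 was Gbp9, at -0.65 with TSC22D4 shRNA (adjusted p = 0.0152) and -1.02 with LCN13 shRNA (adjusted p = 0.000885).

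The stretches before the transcription starts of these GTPases, and of Ifit1 for comparison, are shown because both groups of genes answer to interferon through short promoter motifs. Letters in capitals mark matches to the core of the interferon-stimulated response element, which is GAAA, any 2 bases and GAAA again, and of the gamma-activated sequence, TTCNNNGAA, searched on both strands; the motifs may overlap. The sequences are the 250 bases before the start in RefSeq's GRCm38.p6 table.
Igtp, chr11:58199306-58199555, plus strand: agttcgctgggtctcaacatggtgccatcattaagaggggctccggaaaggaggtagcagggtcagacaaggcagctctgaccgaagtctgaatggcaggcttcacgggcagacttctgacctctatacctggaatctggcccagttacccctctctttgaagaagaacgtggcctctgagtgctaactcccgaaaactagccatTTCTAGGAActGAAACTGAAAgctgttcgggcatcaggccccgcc
Irgm2, chr11:58214727-58214976, plus strand: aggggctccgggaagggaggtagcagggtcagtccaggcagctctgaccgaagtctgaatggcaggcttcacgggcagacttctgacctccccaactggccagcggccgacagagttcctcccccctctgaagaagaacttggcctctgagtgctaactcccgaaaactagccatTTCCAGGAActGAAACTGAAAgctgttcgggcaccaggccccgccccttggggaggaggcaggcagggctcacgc
Gbp2, chr3:142620413-142620662, plus strand: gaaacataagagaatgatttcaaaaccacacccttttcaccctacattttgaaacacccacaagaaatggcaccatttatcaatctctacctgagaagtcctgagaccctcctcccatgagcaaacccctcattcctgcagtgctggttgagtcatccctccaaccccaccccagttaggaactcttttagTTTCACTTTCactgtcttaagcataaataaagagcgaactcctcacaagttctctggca
Gbp5, chr3:142496684-142496933, plus strand: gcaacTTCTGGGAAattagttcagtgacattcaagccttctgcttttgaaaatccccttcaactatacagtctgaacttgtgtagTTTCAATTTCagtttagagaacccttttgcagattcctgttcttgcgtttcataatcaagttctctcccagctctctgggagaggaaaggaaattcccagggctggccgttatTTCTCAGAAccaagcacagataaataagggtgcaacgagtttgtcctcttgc
Ifit1, chr19:34640639-34640888, plus strand: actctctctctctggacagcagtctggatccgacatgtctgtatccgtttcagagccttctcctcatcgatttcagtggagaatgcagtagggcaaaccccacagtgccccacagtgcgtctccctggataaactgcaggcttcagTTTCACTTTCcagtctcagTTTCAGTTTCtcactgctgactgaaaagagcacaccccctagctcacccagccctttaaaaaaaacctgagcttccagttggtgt

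Igtp and Irgm2 each held both motifs in neighbouring positions, Gbp2 held the response element alone, Gbp5 held it with 2 gamma-activated sequences, and Ifit1 held 2 response elements and no gamma-activated sequence. Over windows that reach past the start, 7 of 8 windows of 7 GTPase genes (87.5%) held the response element and 4 (50%) the gamma-activated sequence. For the interferon-induced effectors these were 14 (43.8%) and 8 (25%) of 32 windows of 27 genes. Among all 32851 windows, 3.44% held the first and 8.3% the second motif. A match describes letters and does not show that a factor binds there.

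Ifit1, an RNA-binding antiviral effector, read 9.88, 9.31 and 9.66 in controls, 7.04, 7.06 and 7.54 with LCN13 shRNA and 6.50, 6.77 and 6.68 with TSC22D4 shRNA. It was thus lower than control in both groups, at -2.40 with LCN13 and -2.96 with TSC22D4 shRNA, both past the threshold (adjusted p = 0.000455 and 0.000100), and the direct difference was -0.56 without passing (adjusted p = 0.185). Oasl2 differed directly by -0.39, Cmpk2 by -0.20 and Ifit2 by -0.21. These genes were named for their large mean falls from control, so those falls are not a separate result. The list's median against control was -0.76 with TSC22D4 and -0.94 with LCN13 shRNA, and 22 and 29 of the 37 passed there, all lower. Among all 25206 probe sets 63 and 152 passed there as lower. On the other side of 0 were Isg20, an antiviral exonuclease, at 5.46, 5.77 and 5.84 against 6.53, 6.47 and 6.24 (0.72, interval 0.45 to 1.00, adjusted p = 0.0553), and the nucleotide phosphohydrolase Samhd1 at 9.64, 9.63 and 9.51 against 10.10, 9.96 and 9.99 (0.42, adjusted p = 0.0827).

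Of the genes of antigen presentation on MHC class I, 4 of 18 (22.2%) were apart in the higher and 0 in the lower direction. This stands beside 9.90% and 11.3% of all probe sets, and the list had a median of 0.14. Psmb9, an immunoproteasome subunit, read 5.25, 5.64 and 5.29 against 6.16, 5.92 and 5.90 (0.60, interval 0.36 to 0.84, adjusted p = 0.0566), with LCN13 animals 21 and 23 below the array median. The peptide transporter Tap1 read 6.42, 6.71 and 6.44 against 6.90, 6.94 and 6.93 (0.40, adjusted p = 0.142). Both were lower than control with LCN13 shRNA, Psmb9 at -0.66 and Tap1 at -0.74 (adjusted p = 0.0250 and 0.0157). The classical class I genes H2-K1 and H2-D1 differed directly by -0.11 and -0.08, and B2m by -0.03. The GTPase median stayed between 0.357 and 0.578 under all alternatives.

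**Figure D4:**
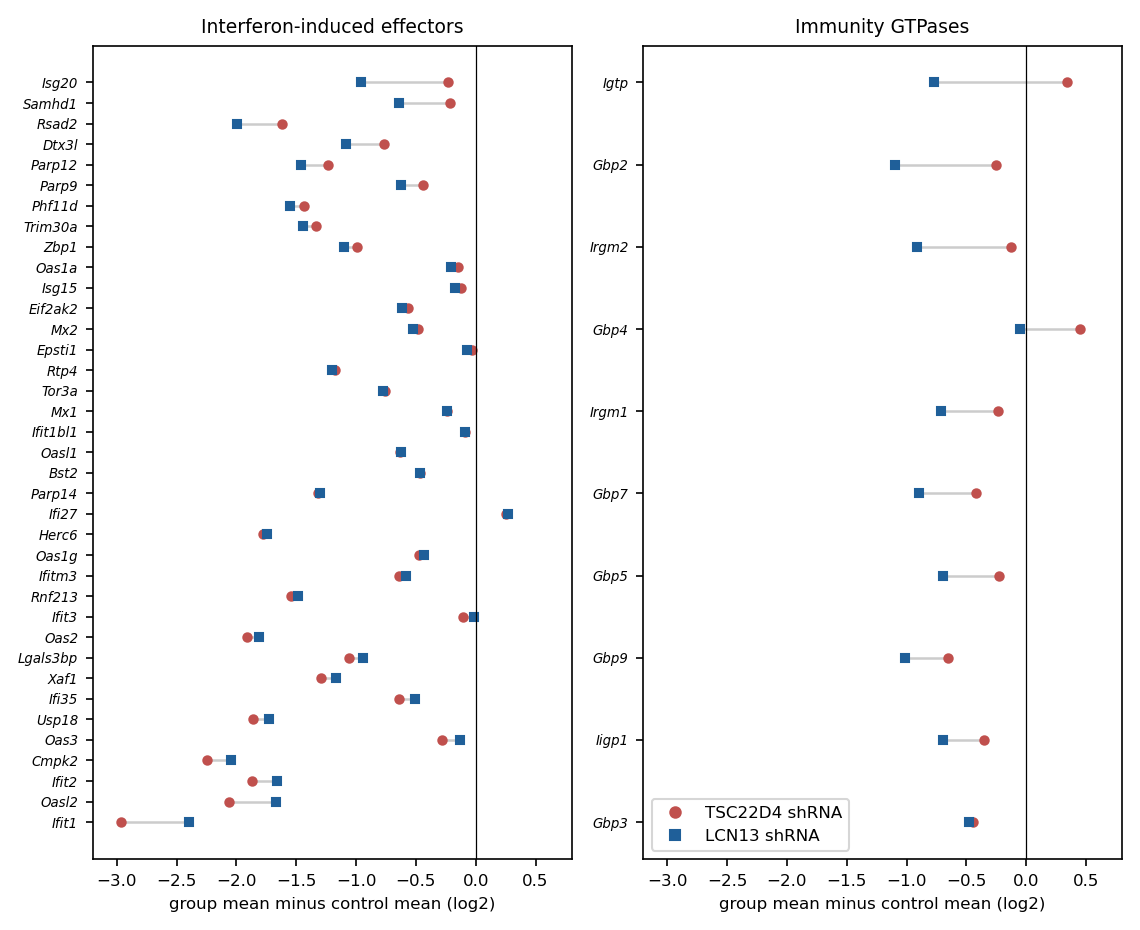
For each gene the log2 difference from the control mean is drawn for TSC22D4 shRNA (red circles) and LCN13 shRNA (blue squares), for 37 interferon-induced effectors on the left and 10 immunity GTPases on the right, sorted by the direct difference. On the left 36 of 37 genes lie below 0 for both groups and the red and blue points differ by -0.56 to 0.72, while on the right every blue point lies to the left of the red one, by 0.03 (Gbp3) to 1.11 (Igtp); both differences share the 3 control arrays.

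The largest differences that passed were those of small noncoding RNAs, which guide chemical modification of ribosomal and spliceosomal RNA. These genes were picked out after their values were seen. Snora17 read 12.00, 11.16 and 11.41 with LCN13 shRNA, 9.39, 9.42 and 9.83 with TSC22D4 shRNA and 10.36, 10.72 and 11.19 in controls. TSC22D4 minus LCN13 was -1.98 (3.94-fold lower, SE 0.26, adjusted p = 0.0435). Scarna13 read 11.22, 10.71 and 11.16 against 8.73, 9.52 and 9.02, a difference of -1.94 (3.84-fold lower, SE 0.25), and was also lower than control with TSC22D4 shRNA, at -1.59 (adjusted p = 0.0389). Snora73a, a member of the U17 family that acts in ribosomal RNA cleavage, read 6.91, 6.30 and 6.88 against 5.48, 5.58 and 5.53. The difference was -1.17 (SE 0.16). Its TSC22D4 arrays lay just above the array median of 5.45, a level at which detection cannot be judged. For Snora17, Scarna13 and Snora73a the groups were apart with controls between. Snora7a differed by -0.39 (SE 0.059).

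Others were as far apart without passing. Snora16a differed by -2.21 (adjusted p = 0.0660), Snord13 by -1.64 (0.0636), Snora73b by -1.54 (0.0649), Snora74a by -1.05 (0.0566) and Rpph1, the RNA of ribonuclease P, by -1.05 (0.0553), each with its adjusted p in parentheses. For each of them every TSC22D4 array lay below every LCN13 array, and those of Snord13 lay below the array median. Scarna6 differed by -2.04, but its TSC22D4 arrays read 9.98, 7.12 and 11.08, so animal 26 stands far below the other two. Over all 107 such genes the median was -0.03, and 4 (3.74%) were apart in the higher and 23 (21.5%) in the lower direction. The shares of all probe sets were 9.90% and 11.3%. Snord57, which was apart, and Snord99, which was not, differed the other way by 0.67 and 0.84.

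Most of these RNAs are cut from introns of longer transcripts, and the probe sets of the genes around them did not show gaps of this size. Snora17 lies within Snhg7, whose level differed by -0.06 (interval -0.17 to 0.05), and Scarna13 within Snhg10, at 0.02 (interval -0.08 to 0.12). Snora73a and Snora73b lie within Snhg3, at -0.12 (interval -0.22 to -0.02), and Snora16a within Snhg12, at 0.07 (interval -0.12 to 0.25). Snhg12 averaged 5.27 with LCN13 and 5.34 with TSC22D4 shRNA, below the array median of 5.45. Snhg7, at 5.53 and 5.47, and Snhg10, at 5.69 and 5.71, lay close to that median. At such levels a small difference does not show that the surrounding gene was unchanged. Snora31 lies within Tpt1, whose probe set at a mean of 4.99 lay below the array median, and Scarna6 within Atg16l1, at -0.03. Placement is by span in the GRCm38.p6 gene table, and whether a probe set reads the small RNA, the intron or both cannot be told from the sources used here. Snora73a and Snora73b are near-identical copies, so their signals may be shared.

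**Figure D5:**
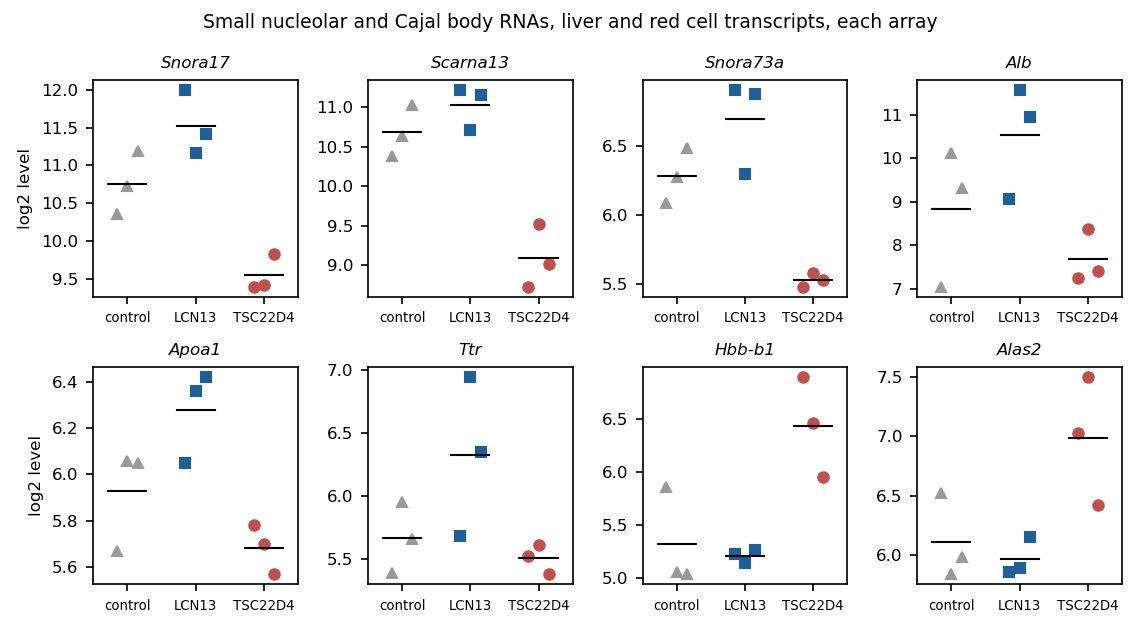
The log2 level of every control, LCN13 and TSC22D4 array is plotted for 3 small RNAs, 3 liver transcripts and 2 red cell transcripts, with a bar at each group mean. The TSC22D4 arrays are the lowest for Snora17, Scarna13 and Snora73a, lie below the LCN13 arrays for Alb, Apoa1 and Ttr, and lie above them for Hbb-b1 and Alas2.

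Marker transcripts of other cell types also had gaps between the groups, none past the threshold. In whole muscle, fewer cells of a type and less RNA per cell cannot be told apart. Where the liver transcripts on these muscle arrays come from was not tested. Albumin, Alb, had the largest difference of all probe sets, with 9.07, 11.57 and 10.94 in the LCN13 group, 7.24, 8.38 and 7.40 in the TSC22D4 group and 7.04, 10.12 and 9.32 in controls. The groups were apart, but the value was -2.85 with a standard error of 1.08 (interval -5.27 to -0.43, adjusted p = 0.278). Of 7 measured hepatocyte markers, 5 (71.4%) were apart in the lower and 0 in the higher direction, beside 11.3% and 9.90% of all probe sets. Their median was -0.60, with none past the threshold. Apoa1 differed by -0.60, Apoa2 by -0.89 and Ttr by -0.82, and Cyp2e1 by -0.05. The mean deviation of the list was -0.096, 1.08 and 0.579 on LCN13 arrays 21, 22 and 23 and between -0.399 and -0.238 on the TSC22D4 arrays. The abundant liver genes Mup13, Mup3 and Serpina1b differed by -1.93, -1.73 and -1.68, again with LCN13 animals 22 and 23 high, and for Serpina1b the groups overlapped.

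All 3 measured red cell markers of 8 were apart in the higher direction, beside 9.90% of all probe sets. Hbb-b1, a beta globin, read 5.23, 5.14 and 5.27 with LCN13 shRNA and 6.89, 6.46 and 5.95 with TSC22D4 shRNA (1.22, interval 0.33 to 2.11, adjusted p = 0.209), the largest positive difference of all probe sets, with all LCN13 arrays below the array median. Alas2, the red cell form of the enzyme that starts haem synthesis, read 5.86, 5.89 and 6.15 against 7.03, 7.50 and 6.42 (1.02, adjusted p = 0.217), and Slc4a1 differed by 0.30. Their mean deviation was between -0.655 and -0.521 on the LCN13 arrays, between -0.141 and 0.491 on the TSC22D4 arrays and between 0.34 and 1.42 in the group with both viruses. With this score as a covariate 0 probe sets passed in limma and 2095 had an unadjusted p below 0.05, against 3500. With the hepatocyte score 9 passed and with that of 6 tendon genes 2. The red cell and hepatocyte scores each separated the TSC22D4 and LCN13 arrays without overlap, so in those fits score and group cannot be told apart. Whether these transcripts have a part in the other differences was not tested.

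All 5 measured adipocyte and all 6 smooth muscle markers had negative differences, none past the threshold. Fabp4, the fatty acid-binding protein of adipocytes and capillaries, read 12.61, 12.60 and 12.71 against 12.16, 12.17 and 12.28 (-0.44, adjusted p = 0.251). Of 5 adipocyte markers, 3 (60.0%) were apart in the lower direction, beside 11.3% of all probe sets. Tagln of smooth muscle read 8.34, 8.44 and 8.43 against 7.83, 7.85 and 7.99 (-0.51, adjusted p = 0.294). Endothelial markers went both ways, with 5 of 7 below 0 and 1 (14.3%) apart in the lower direction, beside 11.3% of all probe sets; the cadherin Cdh5 differed by -0.36 and Vwf by 0.14. The 7 measured macrophage markers had a median of 0.13, and those of neutrophils and lymphocytes 0.0101 and 0.0059. The neutrophil and lymphocyte markers averaged at most 5.05 and 5.19 on any array, below the array median of 5.45. At that level their medians do not show equal cell content. Slow fibre markers had a median of -0.0013.

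Of 20 genes of muscle wasting, 7 (35.0%) were apart in the higher and 2 in the lower direction, beside 9.90% and 11.3% of all probe sets, with a median of 0.09 and none past the threshold. The ubiquitin ligase Trim63, also known as MuRF1, read 9.87, 10.25 and 10.18 with LCN13 shRNA, 10.83, 10.61 and 10.59 with TSC22D4 shRNA and 11.08, 10.75 and 10.71 in controls (0.58, interval 0.31 to 0.85, adjusted p = 0.0827). The glucocorticoid-induced factor Klf15 read 6.70, 7.13 and 7.06 against 7.31, 7.22 and 7.38, below all controls (7.61, 7.65 and 7.67), a direct difference of 0.34 (adjusted p = 0.185). Of 21 immediate early genes, 0 were apart in the higher and 4 (19.0%) in the lower direction, beside 11.3% of all probe sets, among them Junb at -0.36. Of 21 genes of the endoplasmic reticulum and integrated stress response, 1 (4.76%), the disulfide isomerase Pdia6 at 0.21, was apart in the higher and 5 (23.8%) in the lower direction, beside 9.90% and 11.3% of all probe sets. Among these 5 was the chaperone Hsp90b1, at 10.75, 10.64 and 10.66 against 10.29, 10.38 and 10.36 (-0.34, adjusted p = 0.104).

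Of the remaining largest differences, Cdnf, a neurotrophic factor of the endoplasmic reticulum, read 7.95, 7.87 and 7.94 with LCN13 shRNA and 9.13, 8.72 and 8.82 with TSC22D4 shRNA (0.97, interval 0.59 to 1.35, adjusted p = 0.0562). The helicase Ruvbl1 read 6.04, 6.47 and 6.29 against 7.21, 7.10 and 7.06 (0.85, adjusted p = 0.0611), and Pagr1a differed by 0.85 (adjusted p = 0.0765). In these 3 the groups were apart and the LCN13 arrays were the ones below control. Gadd45g and Ces1d differed by 0.97 and 1.00 with groups that overlapped. In the other direction Ankrd1, a stretch-responsive muscle protein, read 8.92, 8.84 and 8.37 against 7.81, 8.07 and 7.51 (-0.91, adjusted p = 0.104), and thrombospondin Thbs1 differed by -0.83 (adjusted p = 0.231).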

How the data were processed

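Total RNA of gastrocnemius was hybridised as biotin-labelled cDNA to 1-colour Affymetrix arrays, per the labels' protocols. The deposited table holds log2 levels, which the authors computed by RMA, per the submitters' processing notes; RMA subtracts background, equalises array distributions and summarises probe sets. No source used here gives its version, the probe set definitions or the genome build. Sorted values were identical in 11 of 12 columns, and the other departed by at most 0.00187, so a shift of most transcripts in 1 direction cannot be seen. Of 25206 probe sets 23185 had 1 gene symbol and 2021 (8.02%) none in the annotation used. No filter was applied.

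limma 3.58.1 in R 4.3.3 (lmFit and eBayes) was fitted over 12 arrays with 4 group means, giving 8 residual and 1.69 prior degrees of freedom; tests were two-sided, with Benjamini-Hochberg adjustment over all probe sets and a threshold of 0.05. Intervals are 95% and errors are moderated standard errors. The steps were tested on simulated data. Members and 48 gene lists were chosen with earlier results of these data known. Genes named are the targets, up to 12 of the largest differences past the threshold in each direction, the 10 largest in each direction, the 3 smallest p of each list and the 10 largest interferon falls against control, with clone-named and small RNA genes left out; small RNAs, the genes around them, Gbp2, Bckdha, Ivd, Ppm1k, Ttr, the smallest differences past the threshold and other list members were named after their values were seen. Alternatives were probe set choice, a dim-probe filter, eBayes options, normalization, array weights, marker covariates, the 6 arrays alone and each array left out.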

Additional observations from a re-analysis of the deposited data

How the results depend on the processing

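The number past the threshold, 37, was the result that moved most. It was 82 among probe sets above the median level, 84 with the 6 arrays alone, 20 with trend and robust options, 237 with array weights, 2 with the tendon score, 9 with the hepatocyte score and 0 with the red cell score as a covariate in limma, and between 0 and 201 when 1 array was left out. The cause was not tested. The hepatocyte and red cell scores separated the compared groups, so in those fits score and group cannot be told apart. With an unadjusted p below 0.05 the count of 3500 fell to 2095 with the red cell score, and was between 2474 and 3932 with an array left out. Intervals within 1 numbered 12484 of the probe sets above the median level, since fewer were tested there. No value turned its direction past the threshold. No paired analysis was possible because animal numbers are not shared between groups. With 3 animals a group, adjusted p at the threshold, a selection of animals by the submitters and no batch information, single genes past the threshold should be read with their intervals, and levels near the array median have no floor by which detection can be judged.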

Other observations

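Mitochondrial ribosomal proteins, which build the machinery that translates the mitochondrial genome, were listed after their values were seen. Of 76 measured, 24 (31.6%) were apart with TSC22D4 arrays higher and 8 (10.5%) with them lower, beside 9.90% and 11.3% of all probe sets, and 0 passed in limma, with 20 higher and 7 lower at an unadjusted p below 0.05. Mrpl11 read 6.60, 6.67 and 6.82 with LCN13 shRNA and 7.25, 7.03 and 7.10 with TSC22D4 shRNA (0.43, adjusted p = 0.0553), and Mrpl54 read 9.31, 9.29 and 9.30 against 9.60, 9.60 and 9.45 (0.25, adjusted p = 0.0536). Mrpl33 and Mrps9 differed the other way, by -0.40 and -0.29. The list's median was 0.09.

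Regulators of energy balance in muscle gave examples on the same side. Prkab2, a subunit of AMP-activated kinase, read 11.12, 11.16 and 11.07 with LCN13 shRNA and 11.59, 11.51 and 11.46 with TSC22D4 shRNA (0.40, adjusted p = 0.0890). Tfam, which packages and transcribes mitochondrial DNA, read 7.09, 7.24 and 7.24 against 7.57, 7.63 and 7.71 (0.45, adjusted p = 0.145). The groups were apart in both genes, and the list of 17 biogenesis regulators had a median of -0.01. Of these, 5 (29.4%) were apart in the higher and 2 (11.8%) in the lower direction, beside 9.90% and 11.3% of all probe sets.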
